A study of Mus musculus with 48 samples.

Results

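The comparison of infarcted with sham-operated hearts on day 7 after surgery at postnatal day 1 (P1) rests on 12 H3K27ac CoBATCH libraries, which are the 6 titled P1 MI day 7 and the 6 titled P1 sham day 7, out of 48 labelled samples, of which 42 gave reads used here. All animals were C57BL/6 mice operated on at postnatal day 1. In the MI arm the left anterior descending coronary artery was ligated to cause a myocardial infarction (MI), and the sham arm had the same operation without the ligation. Hearts were taken 7 days later and cut into 3 pieces, the infarct zone or IZ, the border zone or BZ beside it and the remote zone or RZ, and sham hearts, which have no infarct, carry the same zone names. The arms were taken from the sample titles, which name the surgery. The treatment label of every sham sample reads myocardial infarction, as that of the MI samples does, so the labels contradict the titles for the sham arm, and every difference between MI and sham rests on the titles. Each zone and arm has 2 libraries, numbered 1 and 2, and each library comes from several pooled hearts. The cells were sorted as CD45+ F4/80+, a gate for macrophages. The study used pups of both sexes and the labels give none. P10 day 7, the same design with surgery at postnatal day 10, is used only to set the P1 response beside it.

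H3K27ac is acetylation of lysine on the tail of histone H3, and it marks enhancers and promoters that are in use. CoBATCH reads it by tethering a transposase to the antibody-bound mark, so that DNA fragments are released where the mark lies. Macrophages of the neonatal heart are seeded before birth, and infarction brings in blood monocytes that clear debris and release cytokines and growth factors. The heart of a newborn mouse can regrow muscle after an infarct at P1, a capacity that is lost within the first days of life. CoBATCH labels single cells, but cells were not separated here. The mark is therefore averaged over the cells of a library, so that fewer cells of a type and less mark per cell cannot be told apart.

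The sequences shown are from the strongest points of H3K27ac in gene windows that passed the test described further on, so that the letters at these points can be read. A gene window runs from 50 kb upstream of a gene to 30 kb downstream, and the stretch shown is 200 bases around the summit of the region with most read pairs in that window. The regions themselves did not pass. With the block (the replicate number as a term of the limma fit) those in the windows of Ankrd28, Bcl9 and Nr4a2 had an unadjusted p of 0.422, 0.0779 and 0.0698, and those in the windows of Ccl6, Ccdc82 and Traf3ip1 of 0.00557, 0.00374 and 0.00545. They were chosen after the values were seen, for 2 windows that were higher and 4 that were lower in MI. The genome is GRCm38, plus strand, 5′ to 3′. The Ccl6 stretch lies at chr11:83592651-83592850 in an intron of Ccl6, and the Ankrd28 stretch at chr14:31670151-31670350 between genes. The Bcl9 stretch lies at chr3:97227651-97227850 in an intron of Bcl9, and the Nr4a2 stretch at chr2:57116651-57116850 in an intron of Nr4a2. The stretch of the Ccdc82 window lies at chr9:13298151-13298350 in an exon of Maml2, and that of the Traf3ip1 window at chr1:91458651-91458850 in an intron of Per2. Capitals mark a match to 1 of 4 motifs searched on both strands.
Ccl6: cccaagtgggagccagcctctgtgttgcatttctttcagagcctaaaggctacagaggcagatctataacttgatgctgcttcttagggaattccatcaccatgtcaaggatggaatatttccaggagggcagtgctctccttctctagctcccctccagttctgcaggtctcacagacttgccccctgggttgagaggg
Ankrd28: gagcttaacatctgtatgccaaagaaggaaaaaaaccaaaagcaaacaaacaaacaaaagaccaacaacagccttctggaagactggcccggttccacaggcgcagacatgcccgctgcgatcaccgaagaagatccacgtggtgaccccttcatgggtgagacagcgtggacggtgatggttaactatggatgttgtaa
Bcl9: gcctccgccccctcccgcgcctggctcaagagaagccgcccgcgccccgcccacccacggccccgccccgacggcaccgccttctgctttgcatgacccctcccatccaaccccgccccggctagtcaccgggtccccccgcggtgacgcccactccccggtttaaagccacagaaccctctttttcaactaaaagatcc
Nr4a2: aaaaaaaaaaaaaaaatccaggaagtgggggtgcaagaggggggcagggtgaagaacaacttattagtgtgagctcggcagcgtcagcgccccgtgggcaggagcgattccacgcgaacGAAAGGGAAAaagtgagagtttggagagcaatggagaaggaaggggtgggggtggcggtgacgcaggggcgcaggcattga
Ccdc82: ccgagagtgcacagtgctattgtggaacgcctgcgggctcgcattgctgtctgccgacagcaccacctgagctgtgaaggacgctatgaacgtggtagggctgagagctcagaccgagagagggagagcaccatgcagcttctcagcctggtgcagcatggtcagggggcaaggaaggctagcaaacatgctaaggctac
Traf3ip1: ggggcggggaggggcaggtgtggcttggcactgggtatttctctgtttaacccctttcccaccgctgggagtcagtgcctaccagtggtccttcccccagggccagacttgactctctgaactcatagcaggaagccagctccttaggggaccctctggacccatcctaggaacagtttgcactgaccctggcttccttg

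The motifs were AP-1 (TGANTCA), PU.1 (GAGGAAGT), C/EBP (TTGCNNAA) and the interferon-stimulated response element, all bound by factors that macrophages use. The response element was found in the Nr4a2 stretch, and in 1.86% of the 12493 regions tested when each was searched over the same 200 bases. None of the 6 stretches held the AP-1, PU.1 or C/EBP letters, which were found in 5.85%, 3.73% and 6.14% of the regions. A match is a description of letters, not a bound site, and a missing match says only that these letters are not in this window.

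The libraries differed widely in depth, from 48077 read pairs in sham IZ 1 to 634784 in MI IZ 1, and 3 of them held fewer than 100000 (sham IZ 1, MI IZ 2 with 87603 and MI RZ 2 with 73087). In gene windows a single pair was worth 1.72 to 22.97 CPM (read pairs scaled to the same depth in every library). There 3 pairs, the level that a count of 0 still allows, came to 68.9 CPM in sham IZ 1 and to 31.2 CPM in MI RZ 2. Regions were scaled to totals of their own, in which 1 pair was worth 44.2 CPM in sham IZ 1 and 12.6 CPM in MI BZ 1. CPM of windows and CPM of regions are therefore not on 1 scale. H3K27ac regions held 45.8% ± 12.7 of pairs in MI and 44.8% ± 10.1 in sham (SD, n = 6 each; exact permutation test within zones, two-sided, p = 0.898). They held 32.2% to 39.5% in the libraries numbered 1 and 47.9% to 63.8% in those numbered 2, so that the numbers stood apart in this share where the arms did not. The numbers shared no flow cell, and in MI BZ 1 and MI RZ 1 71.7% and 57.0% of pairs came from flow cells that held no sham library of that number. Chromosome Y took 0.00316% ± 0.00289 of pairs in MI and 0.0340% ± 0.0210 in sham, with every sham library above every MI library (exact p = 0.00926 with libraries as units, the smallest the 216 arrangements allow). The 3 zones of a number were taken as 1 pool of hearts, which the labels do not state. For the sex chromosomes these are then 2 pools against 2, over which an exact permutation test could not go below 0.33. Over the zones the Y share ran from 0.0366% to 0.0707% in sham number 1 and from 0.00986% to 0.0276% in sham number 2. Chromosome X took 2.56% ± 0.728 and 1.99% ± 0.128 (exact p = 0.176). Its share was 2.88% to 3.34% in MI and 1.84% to 2.13% in sham among the libraries numbered 1, and 1.71% to 2.19% and 1.87% to 2.13% among those numbered 2, so that only in number 1 did MI lie above sham. The sexes of the pooled pups were not recorded, so a difference in sex and the surgery cannot be told apart in these libraries. Of the 133 windows on X that were tested 0 passed in either limma fit, with 4 and 12 at an unadjusted p under 0.05, and none on Y had enough pairs.

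**Figure D1:**
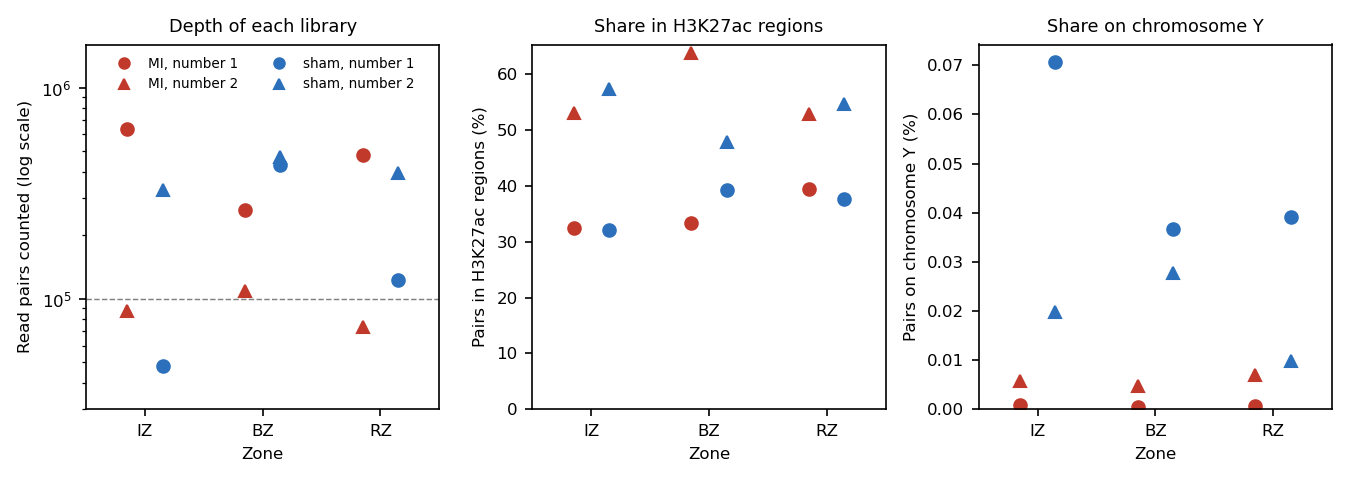
Each point is 1 library, by zone, with the read pairs counted on a log axis (left, dashed line at 100000), the percentage of pairs in H3K27ac regions (middle) and the percentage on chromosome Y (right). Circles are libraries numbered 1 and triangles those numbered 2, and in the middle panel all triangles lie above all circles while MI and sham overlap.

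The list of macrophage identity stood above the typical gene window in every library. Pairs per kb over 12 genes of macrophage identity (among them Adgre1, which encodes F4/80) ran from 3.00 to 8.04 times that of the median gene window in the 12 libraries. Adgre1 alone ran from 1.70 to 3.75 times in MI and from 0.848 to 2.86 times in sham. Genes of cardiomyocytes ran from 0.0319 to 0.935 times, those of fibroblasts and mural cells from 0 to 1.18 times and those of endothelium from 0.581 to 1.38 times. Within the endothelial list Pecam1, an adhesion molecule that leukocytes carry too, ran from 4.74 to 9.72 times in MI and from 5.49 to 6.63 times in sham. Resident macrophage genes ran from 1.36 to 3.07 times, those of Ly6c-low monocytes from 2.555 to 8.16 times and those of Ly6c-high monocytes from 0.850 to 2.89 times. Lymphocyte genes ran from 1.39 to 3.34 times, a range that overlaps with those of Adgre1 and of the resident macrophage genes. In each of these lists the ranges of the arms overlapped.

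Over the 3 zones together, 0 of 10159 gene windows (0.0%) passed an adjusted p of 0.05 between P1 MI and P1 sham in limma, and 618 (6.08%) had an unadjusted p under 0.05, of which 246 were higher and 372 lower in MI. The smallest adjusted p was 0.118. With the library number as a block in the same limma model, 22 windows passed, 6 higher (0.0591% of those tested) and 16 lower (0.157%), and 1231 (12.1%) had an unadjusted p under 0.05. Since neighbouring genes share a stretch of DNA, these 22 windows were 14 stretches, 4 higher and 10 lower. All 22 had an unadjusted p under 0.05 without the block as well, from 4.28e-05 to 0.0354. With the zones of a number taken as 1 pool, the p-values rest on 2 pools of hearts per arm. An exact permutation test over pools could not go below 0.33. With the block the estimated correlation between zones of a pool was -0.00518, so that fit counts the 3 zones of a pool as separate samples. When the zones were summed per pool and fitted without the block, 0 windows passed in limma (smallest adjusted p = 0.999, 320 or 3.15% with an unadjusted p under 0.05), and all 22 kept their sign. This fit and the later refits use libraries that the 22 were picked from, so a kept sign in them is no separate support. The higher windows included a chemokine, the receptor chain of GM-CSF and an inhibitory immune receptor, and the lower ones a nuclear receptor, a subunit of Mediator and a coactivator of Wnt signalling.

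**Figure D2:**
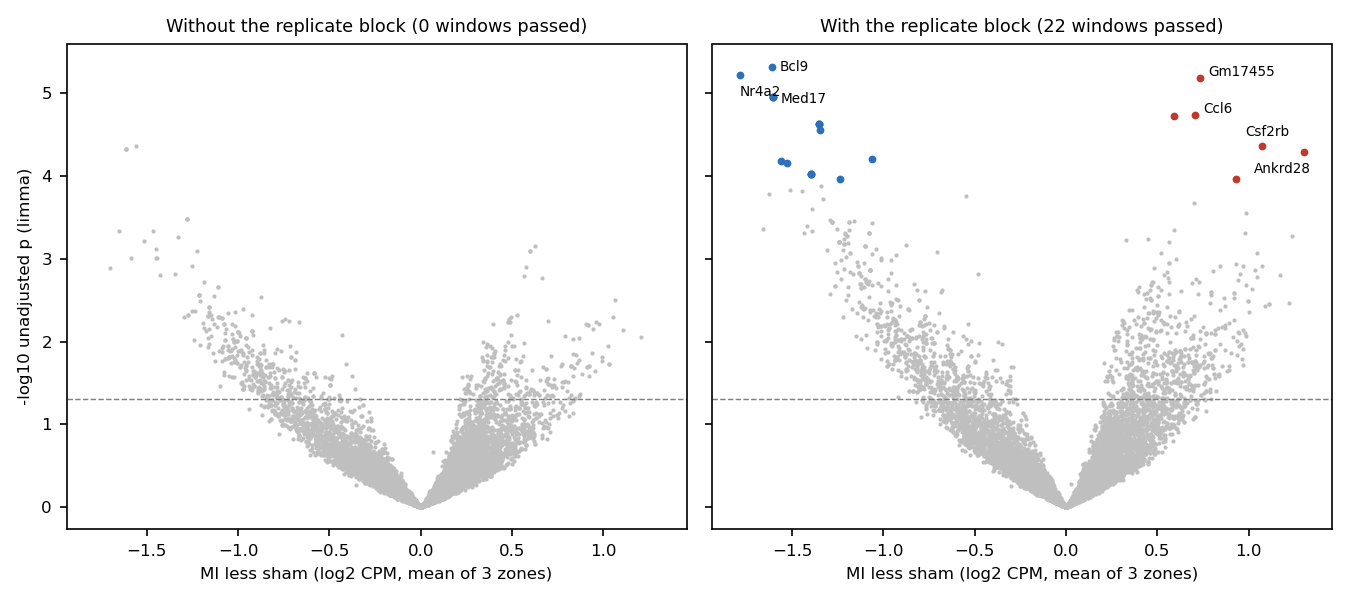
Each point is 1 of the 10159 gene windows, with the difference between P1 MI and P1 sham on day 7 (log2 CPM, mean of the 3 zones) on the horizontal axis and -log10 of the unadjusted limma p on the vertical axis, without the replicate block (left) and with it (right). Coloured points passed an adjusted p of 0.05, which were 0 windows on the left and 22 on the right, and the dashed line marks an unadjusted p of 0.05.

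The higher window with the smallest p in the fit with the block was that of Gm17455, a predicted gene at chr10:60399726-60403559, which overlaps the passing window of Vsir. Vsir encodes VISTA, a receptor of myeloid cells that restrains T cells. A region of 42000 bp in introns of Vsir and Cdh23 held 79.5% of the pairs of the regions that touch the window. These regions were counted over their whole length, and the larger one begins before the window. Activity in the window was lowest 263, median 324 and highest 437 CPM in MI and lowest 45.9, median 204 and highest 285 CPM in sham. MI lay above sham in 6 of 6 pairs of libraries of one zone and number, although the 2 arms overlapped as a whole. The limma difference was 0.48 ± 0.18 (log2, SE) without the block (adjusted p = 0.767) and 0.73 ± 0.15 with it (adjusted p = 0.0186). The difference was 1.37 within number 1, where sham IZ 1 held 2 pairs, and 0.67 within number 2 (log2, pseudocount of 1 CPM). The window was picked in the fit that compares the arms within numbers, so these values are no separate support.

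The window of Ccl6 (chr11:83587882-83593087), a CC chemokine that myeloid cells secrete, lies in the chemokine cluster beside Ccl9. A single region of 57500 bp that covers Ccl6 held 77.5% of the pairs of the regions that touch the window. Activity in the window was lowest 295, median 376 and highest 541 CPM in MI. In sham it was lowest 23.0, median 251 and highest 377 CPM, the lowest being a single pair in sham IZ 1. In 5 of 6 pairs of libraries MI lay higher, the exception being BZ 2, and the arms overlapped. In limma the difference was 0.52 ± 0.18 without the block (adjusted p = 0.767) and 0.70 ± 0.15 with it (adjusted p = 0.0214). It was 0.97 in the IZ and 0.97 in the RZ but 0.17 in the BZ (log2, with the block).

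The window of Csf2rb (chr15:78325752-78353847) also passed, as did that of its neighbour Csf2rb2. Csf2rb encodes the receptor chain shared by GM-CSF, IL-3 and IL-5, and Csf2rb2 a chain for IL-3 that mice have in addition. The 2 windows overlap, and how reads were placed between genes this alike was not tested. The region 29 bp from the start of Csf2rb2 differed by 1.35 ± 0.42 in limma with the block (unadjusted p = 0.00155). That in an intron of Csf2rb differed by 0.64 ± 0.30 (unadjusted p = 0.0356). Activity at Csf2rb was lowest 74.4, median 98.8 and highest 250 CPM in MI and lowest 0, median 75.1 and highest 105 CPM in sham. The highest values were those of MI RZ 2 and MI BZ 2, and the 0 was sham IZ 1. MI lay higher in 5 of 6 pairs of libraries, the exception being RZ 1, with 78.0 CPM in MI and 88.7 CPM in sham. By limma it differed by 0.65 ± 0.29 without the block (adjusted p = 0.778) and 1.07 ± 0.24 with it (adjusted p = 0.0340).

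Ankrd28 (chr14:31698768-31830651), which encodes a regulatory subunit of protein phosphatase 6, completed the higher windows. The window held at lowest 39.4, median 49.6 and highest 113 CPM in MI and lowest 0, median 26.5 and highest 49.9 CPM in sham. In 6 of 6 pairs of libraries MI lay higher, and the highest MI value, in BZ 2, lay apart from the other MI values. The difference in limma was 1.05 ± 0.36 without the block (adjusted p = 0.767) and 1.30 ± 0.30 with it (adjusted p = 0.0371). A region between genes, 29.0 kb from the start of Hacl1, held 57.8% of the pairs of the regions that touch the window. It was counted over its whole length, which begins before the window. Alone it differed by 0.31 ± 0.39 in limma with the block (unadjusted p = 0.422). The next region, 44.5 kb from that start, differed by 0.86 ± 0.47 in the same fit (unadjusted p = 0.0688).

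Among windows that did not pass in either fit, those of Pgghg and Smpd5 had the smallest p without the block among the windows higher in all 3 zones. Pgghg (chr7:140941391-140947664) lies beside Ifitm1, one of a cluster of interferon-induced membrane proteins. Activity in this window was lowest 208, median 220 and highest 258 CPM in MI and lowest 107, median 171 and highest 253 CPM in sham (limma difference 0.62 ± 0.18, adjusted p = 0.514; with the block 0.46 ± 0.15, adjusted p = 0.189). For Smpd5 (chr15:76294348-76296896), a sphingomyelin phosphodiesterase, the differences were 0.67 ± 0.20 (adjusted p = 0.665) and 0.70 ± 0.18 (adjusted p = 0.0740).

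Bcl9 (chr3:97203662-97297917) was the lower window with the smallest p. It encodes a coactivator that joins β-catenin to the transcription machinery in Wnt signalling. Its activity was lowest 0, median 14.4 and highest 27.2 CPM in MI and lowest 24.2, median 44.3 and highest 53.3 CPM in sham. MI was lower in 6 of 6 pairs of libraries, and only MI IZ 1 reached above the lowest sham value. Limma gave a difference of -1.56 ± 0.36 without the block (adjusted p = 0.118) and -1.61 ± 0.32 with it (adjusted p = 0.0186), and it was -1.26, -1.65 and -1.93 in the IZ, BZ and RZ. The intronic region printed above held 52.2% of the pairs of the window.

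Nr4a2 (chr2:57106830-57124003) encodes the orphan nuclear receptor NURR1, an immediate early gene that restrains inflammatory genes in myeloid cells. Activity there was lowest 0, median 4.37 and highest 19.9 CPM in MI and lowest 5.17, median 34.7 and highest 45.9 CPM in sham. All 3 MI libraries numbered 2 held 0 pairs, which at their depths still allows 16.9 to 31.2 CPM, and MI was lower in 6 of 6 pairs of libraries. The limma difference was -1.59 ± 0.46 without the block (adjusted p = 0.528) and -1.78 ± 0.36 with it (adjusted p = 0.0186). In the 12 libraries together the window held 72 pairs, the fewest of the 14 named windows that passed over the 3 zones. The region 253 bp from its start held 23 of them and differed by -1.70 ± 0.54 in limma with the block (unadjusted p = 0.00215), and the intronic region shown above differed by -0.91 ± 0.50 (unadjusted p = 0.0698).

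Med17 (chr9:15260351-15279931) encodes a subunit of Mediator, which links enhancer-bound factors to RNA polymerase II. Its window had the same counts as those of 4931406C07Rik and of Taf1d, a subunit of the RNA polymerase I factor SL1, so the 3 were 1 result. The window held at lowest 0, median 10.98 and highest 41.6 CPM in MI and lowest 19.6, median 38.5 and highest 46.6 CPM in sham. MI RZ 2 was the high MI library, and the others lay below the lowest sham value. In limma the difference was -1.61 ± 0.37 without the block (adjusted p = 0.118) and -1.61 ± 0.34 with it (adjusted p = 0.0186). It was -2.53 in the IZ and -2.33 in the BZ but 0.04 in the RZ.

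The window of Zbtb37, which had the same counts as that of Cenpl (a centromere protein), was lowest 0, median 38.3 and highest 61.2 CPM in MI and lowest 45.9, median 73.3 and highest 74.9 CPM in sham. The arms overlapped only through sham IZ 1, the shallowest library, which held the lowest sham value from 2 pairs. By limma it differed by -1.28 ± 0.34 without the block (adjusted p = 0.476) and -1.35 ± 0.30 with it (adjusted p = 0.0214), and the region at the start of Zbtb37, 99 bp from it, differed by -1.25 ± 0.39 (unadjusted p = 0.00190).

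The window of Ccdc82 was lowest 0, median 19.2 and highest 62.0 CPM in MI and lowest 26.7, median 50.5 and highest 68.9 CPM in sham, with a limma difference of -1.35 ± 0.30 with the block (adjusted p = 0.0236) and of -1.23 ± 0.35 without it (adjusted p = 0.514). Its region with most pairs lies 293 bp from the start of Maml2, a coactivator of Notch. That region differed by -1.31 ± 0.44 (unadjusted p = 0.00374, with the block), and the region at the start of Ccdc82 by -0.54 ± 0.50 (unadjusted p = 0.281). For the window of Traf3ip1, an intraflagellar transport protein, MI was lowest 0, median 30.0 and highest 38.0 CPM and sham lowest 24.1, median 40.2 and highest 91.9 CPM (with the block -1.56 ± 0.36, adjusted p = 0.0415). There 61.7% of pairs fell in the region 574 bp from the start of Per2, a repressor of the circadian clock.

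The other lower windows were those of Tubb6, a β-tubulin, Acsbg2, an acyl-CoA synthetase, Gnptg, which encodes a subunit of the enzyme that tags lysosomal proteins with mannose 6-phosphate, and Zfp950, a zinc finger protein. Their limma differences with the block ran from -1.06 ± 0.25 for Tubb6 (adjusted p = 0.0415) to -1.53 ± 0.36 for Acsbg2 (adjusted p = 0.0416), with -1.40 ± 0.33 for Gnptg (adjusted p = 0.0478) and -1.24 ± 0.30 for Zfp950 (adjusted p = 0.0498). Without the block their adjusted p-values ran from 0.528 to 0.767. The Gnptg window had the same counts as that of Baiap3. In the Zfp950 window the pairs lay mostly in introns of Grk5, a kinase of G protein-coupled receptors, where the region with 49.4% of the pairs was 91.4 ± 35.1 CPM in sham and 62.8 ± 60.2 CPM in MI (SD, n = 6; -0.87 ± 0.40 in limma with the block), and another was 60.2 ± 15.8 and 18.4 ± 21.6 CPM (-1.57 ± 0.47).

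**Figure D3:**
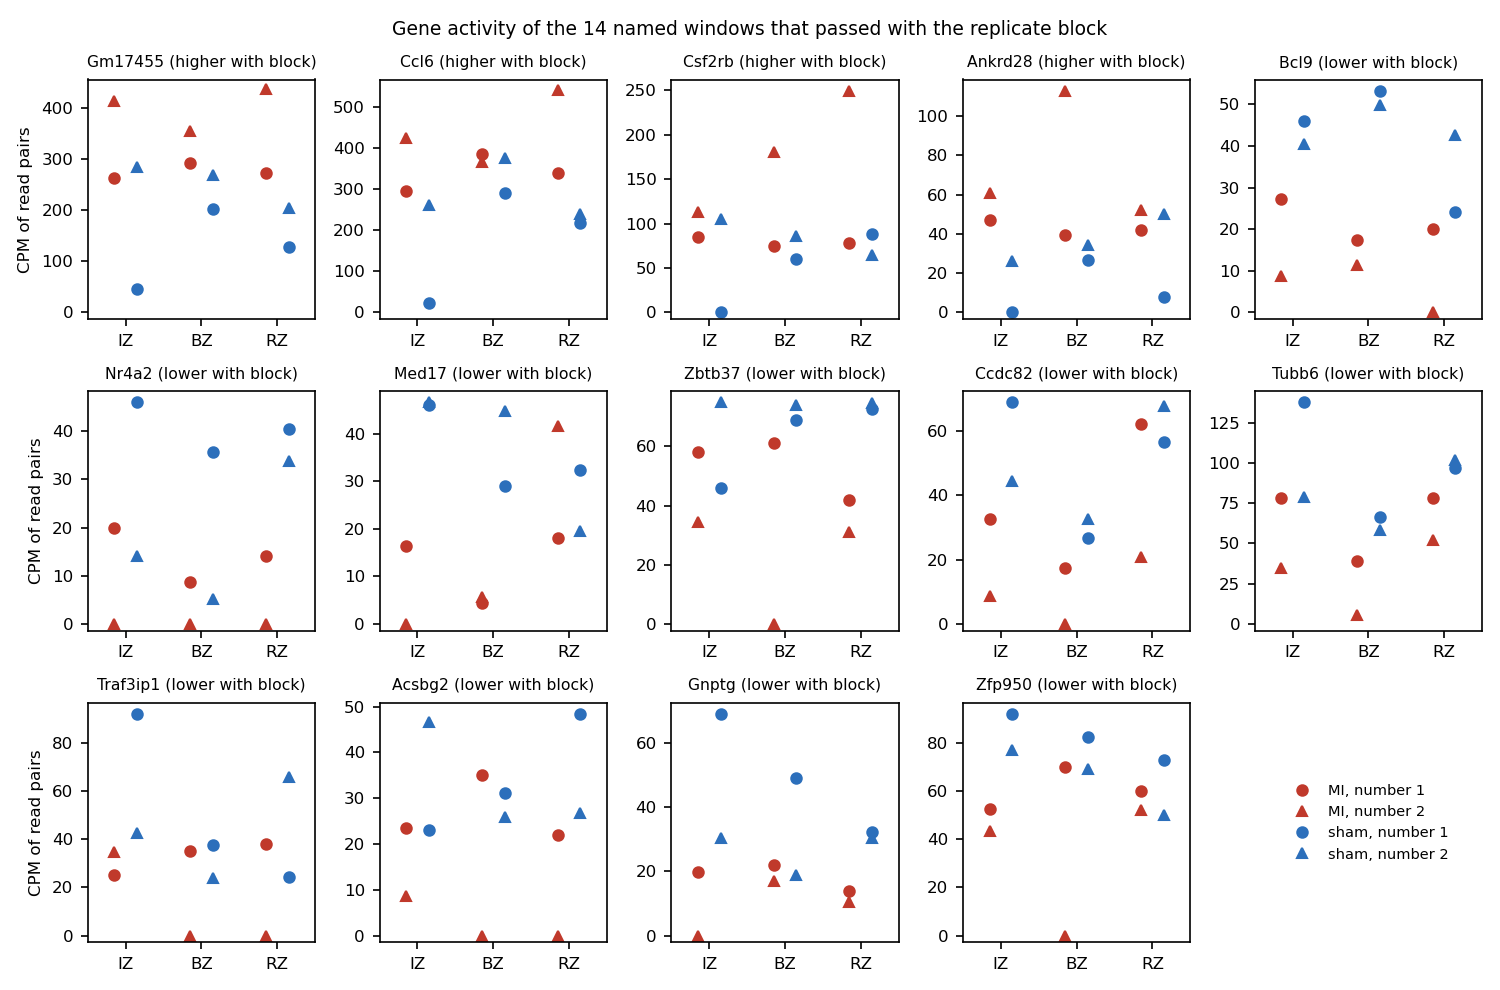
Gene activity in CPM of read pairs (vertical axes, each on its own linear scale) of the 14 named windows that passed with the replicate block, by zone, with 1 point per library, red for MI and blue for sham, circles for number 1 and triangles for number 2. Sham IZ 1 is the lowest point in the 4 higher windows, and MI libraries numbered 2 lie at 0 in 9 of the 10 lower windows.

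The named windows differed in which libraries carried them. In 9 of the 10 lower windows at least 1 MI library numbered 2 was at 0, in 13 values in all, whereas no MI library numbered 1 and no sham library was at 0 in these windows. The difference within number 2 was larger than that within number 1 in all 10. In the 4 higher windows the difference was larger within number 1 in all 4, where sham IZ 1 is the lowest library and was at 0 in 2 of them. With the 3 libraries under 100000 pairs left out, 0 of 10159 windows passed with the block in limma (smallest adjusted p = 0.0933, 768 with an unadjusted p under 0.05), while all 22 windows kept their sign. The difference was then 1.57 for Ankrd28 (from 1.30), -1.49 for Zbtb37 (from -1.35), -1.70 for Acsbg2 (from -1.53) and -1.46 for Zfp950 (from -1.24), but 0.54 for Csf2rb (from 1.07), 0.42 for Ccl6 (from 0.70) and -1.02 for Bcl9 (from -1.61). MI BZ 2, with 108626 pairs just over this cut, stayed in that fit. It was at 0 in the windows of Zbtb37, Acsbg2 and Zfp950 and was the highest MI library for Ankrd28. With only MI BZ 2 left out, the differences with the block were -0.52 for Zbtb37, -1.02 for Acsbg2, -0.38 for Zfp950 and 1.15 for Ankrd28. Counting each read position once left 11 of the 22 (1 higher, 10 lower) past the threshold with the block. Without MI BZ 1 and MI RZ 1, 58 windows passed without the block (5 higher, 53 lower) and 89 with it (8 higher, 81 lower), of which 11 and 12 were among the 22.

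Leaving out 1 library at a time changed the count of windows past the threshold with the block as well. It was 51 without MI IZ 1, 12 without MI IZ 2, 68 without MI BZ 1, 9 without MI BZ 2, 77 without MI RZ 1, 76 without sham BZ 1, 1 without sham BZ 2, 78 without sham RZ 1 and 5 without sham RZ 2. Of the 22 windows, 1 remained past the threshold without sham BZ 2, 3 without sham RZ 2 and 21 without sham RZ 1. Each of the 14 named windows lost its call in 2 to 9 of these 12 fits, and none changed sign. In 8 of the 14 the difference moved by over 1.5 times in 1 of these fits. Without MI BZ 2 it was -0.38 for Zfp950, -0.52 for Zbtb37, -0.71 for Tubb6, -0.999 for Traf3ip1 and -1.02 for Acsbg2. Without sham RZ 2 it was 0.64 for Csf2rb, and without sham IZ 2 it was 1.40 for Ccl6 and 1.24 for Gm17455. Without the block, 8 windows passed without MI IZ 1, 20 without MI BZ 1 and 3 without MI RZ 1.

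In 15 windows the 6 MI and the 6 sham libraries did not overlap, 7 higher in MI (0.0689%) and 8 lower (0.0787%), and none of the 22 windows was among them. Among this many windows some separate completely by chance alone, and whether these counts exceed that was not tested. The counts are therefore no evidence of a difference between the arms. Neighbouring windows with the same counts are also counted separately among the 15. The windows are named here after their values were seen. Coro2a, an actin-binding coronin of leukocytes, ran from 415 to 460 CPM in MI and from 292 to 390 CPM in sham (limma difference 0.34 ± 0.13, adjusted p = 0.767; with the block 0.32 ± 0.11, adjusted p = 0.211). Pygl, the liver isoform of glycogen phosphorylase, and its neighbour Trim9 had the same counts and ran from 68.9 to 114 CPM in MI and from 23.0 to 67.1 CPM in sham (0.69 ± 0.29, adjusted p = 0.778). The others on the higher side were Atf7ip, Dnah17, Nek9 and Slc22a20. Plcd1, a phosphoinositide phospholipase C, and its neighbour Dlec1 had the same counts, from 0 to 34.4 CPM in MI and from 35.6 to 56.5 CPM in sham (-1.03 ± 0.38, adjusted p = 0.767; with the block -1.18 ± 0.34, adjusted p = 0.110). The others on the lower side were Rabgap1l, 4930548H24Rik, Trim66 with Rpl27a (which had the same counts), Calhm5 and Larp1.

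The response was then taken zone by zone, with 2 libraries per arm in each zone. In limma 0 windows passed without the block in any zone, and 762 (7.5%), 423 (4.16%) and 700 (6.89%) had an unadjusted p under 0.05 in the IZ, BZ and RZ. With the block the shares at an unadjusted p under 0.05 were 9.29%, 4.55% and 8.95%, and 1 window (0.00984%, higher) passed, that of Fam71e1 in the RZ. The activity at Fam71e1 was 36.0 and 72.8 CPM in MI RZ and 0 and 8.91 CPM in sham RZ. In the BZ and IZ its values were 16.9 to 30.6 CPM in MI and 20.2 to 37.8 CPM in sham. The limma difference in the RZ was 2.85 ± 0.55 with the block (adjusted p = 0.0299) and 2.82 ± 0.58 without it (adjusted p = 0.0758). Counting each read position once, 0 windows passed in the RZ with the block (smallest adjusted p = 0.174 in limma). The gene lies at chr7:44496581-44501486, and 0 pairs in sham RZ 1 still allow 24.2 CPM there.

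The windows with the smallest p in each direction did not pass in the other cases. In the IZ these were Cyp2s1, a cytochrome P450 (109 and 77.9 CPM in MI, 0 and 40.5 CPM in sham; adjusted p = 0.177 in limma), and Med17 (16.3 and 0 CPM in MI, 45.9 and 46.6 CPM in sham; adjusted p = 0.177). In the BZ they were Clpsl2, a colipase-like gene (91.9 and 164 CPM in MI, 55.6 and 18.9 CPM in sham; adjusted p = 0.130), and Susd2, a sushi domain membrane protein (8.75 and 5.64 CPM in MI, 57.8 and 53.4 CPM in sham; adjusted p = 0.101). The lower one in the RZ was Atp6v0a2, a subunit of the vacuolar proton pump (22.01 and 0 CPM in MI, 48.4 and 62.4 CPM in sham; adjusted p = 0.207).

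Whether the response differed between zones was tested as the response in the IZ less that in the RZ. In limma 0 windows passed in either fit, with 720 (7.09%) at an unadjusted p under 0.05 without the block and 541 (5.33%) with it. In each direction the smallest p was that of Skap2, an adaptor of integrin signalling (difference between the responses 3.78 ± 0.87, adjusted p = 0.257), and Slfn9, a member of the interferon-inducible Schlafen family (-2.99 ± 0.78, adjusted p = 0.429). Skap2 was at 0 and 2.02 CPM in sham IZ against 40.3 and 32.1 CPM in sham RZ, and MI held 21.7 and 17.3 CPM in the IZ and 18.01 and 0 CPM in the RZ. Of the 14 named windows 13 had 1 sign in all 3 zones with the block, Med17 being the exception. The windows were chosen for their mean over these zones, so a shared sign is no separate support. For none of the 14 did the response differ between IZ and RZ in limma at an adjusted p of 0.05 (Med17: adjusted p = 0.755 with the block).

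**Figure D4:**
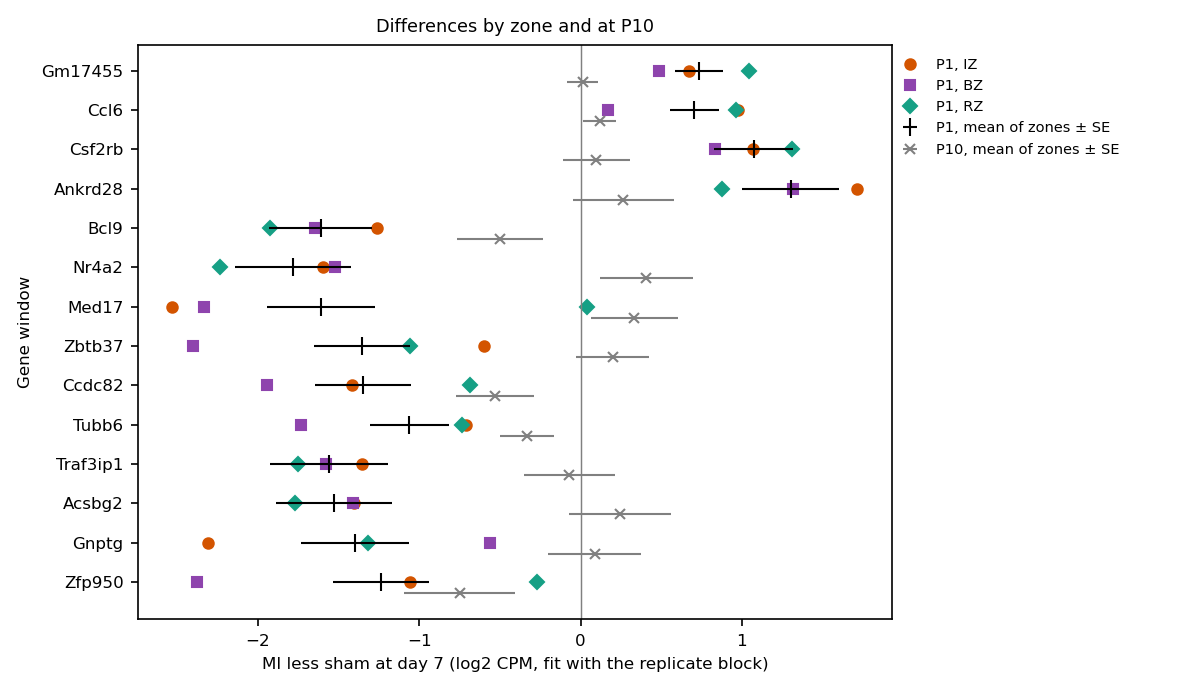
Difference between MI and sham on day 7 for the 14 named windows (log2 CPM, limma fit with the replicate block), with coloured marks for the P1 zones, a black bar with SE for their mean and a grey cross with SE for the mean of the zones at P10. The P1 means lie between 0.70 and 1.30 for the 4 higher windows and between -1.06 and -1.78 for the 10 lower ones, and the P10 means lie between -0.75 and 0.41. The windows were chosen on their P1 values.

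Surgery at P10 gave the comparison of the same 14 windows in older hearts, in 12 libraries of their own. The windows were picked for their difference at P1, so larger differences at P1 than at P10 follow in part from that choice. The P10 day 7 difference with the block was 0.01 ± 0.09 for Gm17455, 0.12 ± 0.10 for Ccl6, 0.10 ± 0.21 for Csf2rb and 0.27 ± 0.32 for Ankrd28. For the lower windows it was below 0 in 5 of 10, with -0.75 ± 0.34 for Zfp950, -0.53 ± 0.24 for Ccdc82, -0.50 ± 0.27 for Bcl9, -0.33 ± 0.17 for Tubb6 and -0.07 ± 0.28 for Traf3ip1. It was above 0 in the other 5, with 0.41 ± 0.29 for Nr4a2, 0.33 ± 0.27 for Med17, 0.25 ± 0.31 for Acsbg2, 0.20 ± 0.23 for Zbtb37 and 0.09 ± 0.29 for Gnptg. The P1 response less the P10 response was -2.19 ± 0.46 for Nr4a2 and -1.94 ± 0.43 for Med17, and both missed the threshold in limma with the block (adjusted p = 0.0785 each; without it 0.999 and 0.509). Across all windows 0 passed this difference in either fit, with 271 (2.67%) at an unadjusted p under 0.05 without the block and 799 (7.86%) with it. Leaving out 1 library at a time gave 0 to 13 windows with the block, all lower, with 13 without MI BZ 1, 13 without sham IZ 1, 8 without MI IZ 1, 7 without sham BZ 1, 3 without MI RZ 2 and 1 without sham RZ 1. The higher window with the smallest p was Caprin2, an RNA-binding protein (1.52 ± 0.53, adjusted p = 0.999).

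The cells of an infarct change class, so lists of genes for cell types and functions were read as well. Of 245 genes in 23 lists 189 had enough pairs to be tested, and 0 passed the adjusted threshold in limma in either fit. Without the block 8 (4.23%) had an unadjusted p under 0.05, against 6.08% of all windows, and with it 21 (11.1%), against 12.1%, so the shares of list genes were below those of all windows. Of these list genes 7 of 8 and 19 of 21 were higher in MI, where over all windows 246 of 618 and 578 of 1231 were higher, and this difference in direction was not tested. The median difference was 0.00418 over all windows, and for the lists it ran from -0.32 for lymphocyte genes to 0.23 for genes of glycolysis and hypoxia. Scaling to all counted pairs moved the median of all windows to -0.21, so these differences are relative to the typical window.

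Glycolysis and hypoxia had 7 of 11 tested genes higher and 4 lower. Aldoa, an aldolase, ran lowest 230, median 253 and highest 323 CPM in MI and lowest 164, median 211 and highest 238 CPM in sham, and it was higher in 6 of 6 pairs of libraries (0.33 ± 0.15, unadjusted p = 0.0343, adjusted p = 0.791 in limma). Ldha, lactate dehydrogenase A, ran lowest 87.5, median 113 and highest 187 CPM in MI and lowest 67.1, median 86.9 and highest 121 CPM in sham (0.53 ± 0.23, unadjusted p = 0.0254, adjusted p = 0.778). In both genes the arms overlapped. The list's median was 0.23 without the block and 0.35 with it, and 0.12, with 9 of 12 genes higher, when all pairs of the windows were counted.

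Inflammatory cytokine and NF-κB genes had 10 of 14 higher and 4 lower, with a median of 0.20 that turned to -0.17 when all pairs of the windows were counted. Il1a, which encodes the alarm cytokine interleukin 1α, ran lowest 41.6, median 69.3 and highest 84.0 CPM in MI and lowest 0, median 47.7 and highest 68.9 CPM in sham (0.77 ± 0.32, unadjusted p = 0.0186, adjusted p = 0.767 in limma). With the block the neighbouring chemokine genes Ccl3 and Ccl4 and the cytokine Tnf also had an unadjusted p under 0.05, with 0.45 ± 0.18, 0.50 ± 0.17 and 0.23 ± 0.10, and none passed after adjustment. The interferon response list had 5 of 9 higher, and its largest difference was Oasl2, an oligoadenylate synthetase-like protein (lowest 32.6, median 46.6 and highest 62.4 CPM in MI, lowest 0, median 21.9 and highest 35.6 CPM in sham; 0.94 ± 0.37, unadjusted p = 0.0138, adjusted p = 0.767), higher in 6 of 6 pairs of libraries.

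Among the other functions, Runx3, a transcription factor of leukocytes, ran from 121 to 239 CPM in MI and from 91.9 to 145 CPM in sham, higher in 6 of 6 pairs (0.46 ± 0.21, adjusted p = 0.788 in limma). Lamp2, a membrane protein of lysosomes, differed by 0.82 ± 0.40 (adjusted p = 0.812). Itgav, the integrin αv that binds apoptotic cells and matrix, was the 1 list gene on the lower side without the block, at lowest 5.64, median 41.8 and highest 51.9 CPM in MI and lowest 16.1, median 51.2 and highest 83.0 CPM in sham (-0.72 ± 0.35, adjusted p = 0.812). All 6 tested chemokine receptor genes were higher in value, with a median of 0.13 that was -0.03 over all pairs of the windows, and the one with an unadjusted p under 0.05 with the block was Ccr1, the receptor of Ccl3 and its relatives (0.52 ± 0.15, adjusted p = 0.110). AP-1 and immediate early genes split 7 and 6 with a median of 0.02, and proliferation genes 3 and 6 with a median of -0.10.

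Genes that mark the classes of macrophages and monocytes did not pass the test in either fit. Adgre1 was lowest 140, median 152 and highest 165 CPM in MI and lowest 91.9, median 131 and highest 170 CPM in sham (0.08 ± 0.20, adjusted p = 0.983 in limma). The resident markers Lyve1, a hyaluronan receptor, and C1qa, a complement chain, differed by -0.11 ± 0.28 and -0.05 ± 0.35 (adjusted p = 0.983 and 0.993). Arg1, the arginase of repair macrophages, was lowest 13.1, median 26.0 and highest 41.6 CPM in MI and lowest 23.0, median 26.5 and highest 46.5 CPM in sham (-0.38 ± 0.36, adjusted p = 0.936). Trem2, a lipid receptor of the same class, differed by 0.47 ± 0.31 without the block (adjusted p = 0.911) and 0.67 ± 0.27 with it (adjusted p = 0.266), and the growth factor Igf1 by 0.12 ± 0.39 (adjusted p = 0.984). Treml4, a marker of Ly6c-low monocytes, ran lowest 80.0, median 113 and highest 208 CPM in MI and lowest 44.5, median 72.6 and highest 124 CPM in sham (0.58 ± 0.28, unadjusted p = 0.0416, adjusted p = 0.808), while Ace of the same class differed by -0.30 ± 0.46 (adjusted p = 0.969). The antigen-presenting chain H2-Aa differed by -0.04 ± 0.45 (adjusted p = 0.997).

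Several markers had too few pairs in regions and were read with all pairs of the window, on a CPM scale of its own. S100a9, an alarm protein of granulocytes and inflammatory monocytes, was lowest 11.8, median 34.3 and highest 66.1 CPM in MI and lowest 0, median 14.03 and highest 33.3 CPM in sham, and the arms overlapped (0.28 ± 0.67, adjusted p = 1.00 in limma). All 10 genes of its list were tested in this way, and 9 were higher and 1 lower in value with a median of 0.19, against -0.04 over all windows. In regions 4 of them could be tested, 2 higher and 2 lower, with a median of 0.07 (0.14 with the block). The 1 with an unadjusted p under 0.05 was Cd177, a surface protein of neutrophils (1.42 ± 0.51, unadjusted p = 0.00814, adjusted p = 1.00 in limma). Across this fit with all pairs, 371 of 16179 windows (2.29%) had an unadjusted p under 0.05 and 0 passed. Of the 7 Ly6c-high monocyte genes 6 were higher and 1 lower, with a median of 0.18, and in regions 3 of 4 were higher and 1 lower, with a median of 0.08 (0.18 with the block). Ly6c2, the marker of classical monocytes, was at a median of 40.1 CPM in MI and 36.1 CPM in sham (0.05 ± 0.33), and Spp1, osteopontin, at 9.65 and 12.1 CPM (-0.18 ± 0.61). Vegfa, the growth factor of blood vessels, named after its values were seen, was lowest 12.9, median 27.1 and highest 53.1 CPM in MI and lowest 0, median 14.6 and highest 21.1 CPM in sham (1.34 ± 0.47, unadjusted p = 0.00662, adjusted p = 1.00).

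**Figure D5:**
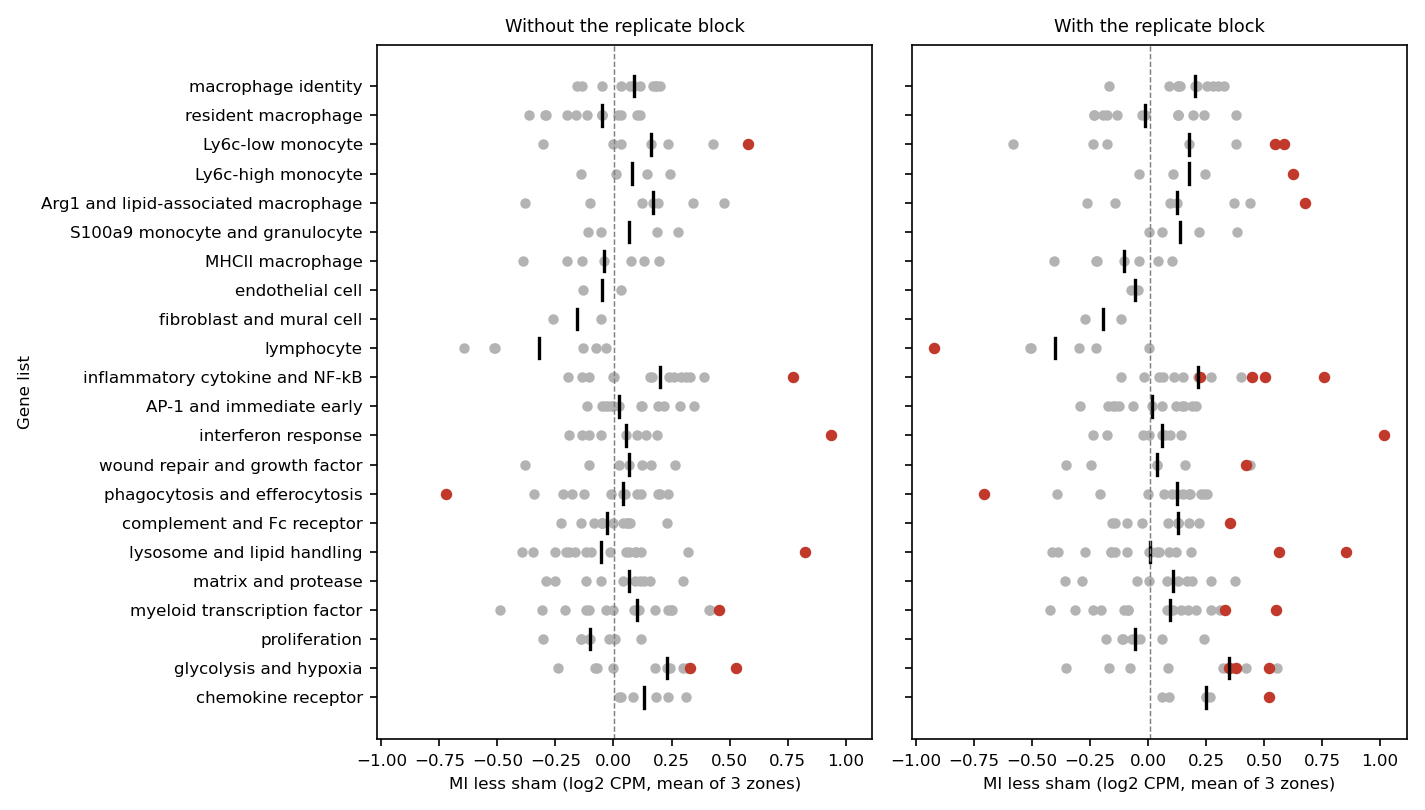
Each point is 1 tested gene of a list, with the limma difference between P1 MI and P1 sham (log2 CPM, mean of the 3 zones) on the horizontal axis, without the replicate block (left) and with it (right). Red points have an unadjusted p under 0.05, black bars are the medians of the lists and the dashed line is the median of all windows; the lists' medians lie between -0.32 and 0.23 on the left.

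Genes of other cell types that a sort can carry along were given the same reading. Summed over the list, fibroblast and mural cell genes took 342.5 to 582 CPM in MI and 467 to 749 CPM in sham, with MI higher in 1 of 6 pairs of libraries, and lymphocyte genes took 786 to 1149 CPM and 789 to 1248 CPM, also with MI higher in 1 of 6 pairs. Endothelial genes took 684 to 1084 CPM in MI and 911 to 1061 CPM in sham, and cardiomyocyte genes 129 to 561 CPM and 225.5 to 578 CPM. No gene of these 4 lists was at 0 in all libraries. Of the 6 lymphocyte genes tested in regions 0 were higher and 6 lower in value, with a median of -0.32 (-0.40 with the block), and over all pairs of the window 4 were higher and 5 lower with a median of -0.17. Over all pairs of the window 4 of the 9 fibroblast and mural cell genes could be tested, 1 higher and 3 lower, with a median of -0.22 against -0.04 over all windows. Pdgfra, a receptor of fibroblasts, ran lowest 0, median 9.17 and highest 20.7 CPM in MI and lowest 16.9, median 20.1 and highest 35.3 CPM in sham, with MI higher in 0 of 6 pairs (-1.23 ± 0.55, unadjusted p = 0.0323, adjusted p = 1.00 in limma), and Col1a1, a collagen chain, differed by 0.07 ± 0.53. Of 6 cardiomyocyte genes 4 were higher and 2 lower, with a median of 0.10, and Myh6, a myosin heavy chain, differed by 0.15 ± 0.51. The part of other cells in the windows that passed was not tested.

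Single H3K27ac regions were compared next, keeping those with a mean of 3 pairs or more over the libraries. In limma 0 of 12493 regions passed over the 3 zones in either fit, and 601 (4.81%) had an unadjusted p under 0.05 without the block and 938 (7.51%) with it. Promoter regions, within 1 kb of a start site, gave 4.65% of 6711 and distal regions 5.00% of 5782, with median differences of -0.06 and -0.05. The regions named here had the smallest p values without passing. On the higher side the smallest was that of the region at the start of Mettl16, an RNA methyltransferase, which ran lowest 20.5, median 26.9 and highest 75.5 CPM in MI and lowest 0, median 2.99 and highest 21.5 CPM in sham, higher in 6 of 6 pairs (1.93 ± 0.54, adjusted p = 0.971 in limma). Next, the region near Mef2a, a transcription factor of muscle and immune cells, at chr7:67421001-67427500 ran lowest 82.1, median 98.7 and highest 118 CPM in MI and lowest 0, median 34.6 and highest 111 CPM in sham (1.40 ± 0.43, adjusted p = 0.971). A region in an intron of Etv6, a transcriptional repressor of blood cells (chr6:134140501-134145500), and one in an intron of App, the amyloid precursor (chr16:85150501-85154500), differed by 1.56 ± 0.48 and 1.63 ± 0.52 (adjusted p = 0.971 each).

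On the lower side, the region in an intron of Def8, a regulator of lysosome positioning, at chr8:123442501-123444500 ran lowest 0, median 2.74 and highest 15.1 CPM in MI and lowest 13.3, median 44.8 and highest 77.7 CPM in sham (-2.21 ± 0.54, adjusted p = 0.480 in limma; with the block -2.10 ± 0.52, adjusted p = 0.295). It lay lower in MI in 6 of 6 pairs of libraries, and the highest MI value lay just above the lowest sham value. The region at the start of Fam161a, a ciliary protein (chr11:23007501-23009000), was at 0 in 5 of 6 MI libraries and ran from 0 to 53.8 CPM in sham (-2.27 ± 0.56, adjusted p = 0.480). It passed with the block once the 3 libraries under 100000 pairs were left out (-3.61, adjusted p = 0.00901 in limma), as the 1 region that did. Regions at the starts of Tmem243 and of Eprs, the glutamyl-prolyl-tRNA synthetase, differed by -1.90 ± 0.51 and -1.90 ± 0.53 (adjusted p = 0.971 each).

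By zone, 608 (4.87%), 794 (6.36%) and 654 (5.23%) of regions had an unadjusted p under 0.05 in the IZ, BZ and RZ without the block, and 0 passed in limma. With the block 1 region passed in the BZ (0.008%, higher), at chr11:74770501-74772000, 80 bp from the start of Mettl16. It held 75.5 and 30.2 CPM in MI BZ (6 and 2 pairs) and 0 pairs in both sham BZ libraries, with 26 pairs in the 12 libraries together. With each read position counted once it did not pass. In the other zones it ran from 20.5 to 36.3 CPM in MI and from 0 to 21.5 CPM in sham. The limma difference in the BZ was 4.31 ± 0.89 with the block (adjusted p = 0.0471) and 4.29 without it (adjusted p = 0.0548), and since sham BZ was at 0 its size is no bound. For the response in the IZ less that in the RZ and for the response at P1 less that at P10, 637 (5.1%) and 454 (3.63%) of regions had an unadjusted p under 0.05, and 0 passed in limma.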

How the data were processed

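H3K27ac CoBATCH was measured in sorted cardiac CD45+ F4/80+ cells. The deposited lists hold 1 line per aligned read mate with its mapping quality score, 21 to 44, and no normalization. According to the methods, the authors split barcodes, trimmed with Cutadapt, aligned to mm10 with Bowtie2, filtered on mapping quality with Samtools and removed duplicates with Picard; their processing notes also name MACS2 2.2.7.1 and deepTools. Cells were not separated here, so each library is 1 sample.

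Read pairs were counted in gene windows (50 kb upstream to 30 kb downstream, GENCODE M21 on GRCm38) within regions, which are 500 bp bins at 4 times the mean or more, pooled over 42 libraries. Windows with a mean of 10 pairs and regions with a mean of 3 entered limma 3.58.1 (voom weights, TMM scaling of 0.973 to 1.05, statmod 1.5.0) in R 4.3.3, fitted over 24 groups and 42 libraries with the correlation within pools of hearts (0.106 in windows and 0.0552 in regions; -0.00518 and -0.00715 with the block). Tests are two-sided, with the Benjamini-Hochberg adjustment made across the whole set of windows, or of regions. The fit was tested on simulated data. Library shares were compared by exact permutation within zones. A second fit holds the replicate number as a block, because the study removed a batch effect before clustering. The number separated the sequencing: numbers shared no flow cell, and repeated lines made up 25.8% to 32.2% of libraries numbered 2 and none of those numbered 1. Deviations of same-numbered MI and sham libraries correlated at -0.0245, 0.119 and 0.0186 in the IZ, BZ and RZ. Pairs are not molecules, so depth limits cover counting error only. Counting and drawing used scipy 1.17.1, matplotlib 3.10.9, pandas 2.3.3 and numpy 2.4.6 under Python 3.11.15.

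The text names, per direction, up to 10 windows past an adjusted p of 0.05 in either fit, 1 per stretch, filled up to 6 with the smallest p of windows with 1 sign in all zones; regions filled up to 4; per zone or difference up to 3, otherwise the smallest p; and list genes with an unadjusted p under 0.05 beside fixed markers. The comparison, the lists and the sequences were chosen with earlier results of these data known. A few items among them are not reported here.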

Additional observations from a re-analysis of the deposited data

Results flagged for a closer look

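In 6 of the 58 groups of 6 libraries examined, 1 library lay far from the other 5 relative to the range of the group (Dixon's test at its usual level); chance alone gives this in about 1 in 20 groups. The Ankrd28 window was 112.9 CPM in MI BZ 2, against 39.4 to 60.6 CPM in the other MI libraries. The Pgghg window was 258.1 CPM in MI BZ 1, against 208 to 226 CPM. In sham IZ 1, the shallowest library, the Zbtb37 window was 45.94 CPM, against 68.9 to 74.9 CPM in the other sham libraries. That value is 2 pairs, with 1 pair worth 22.97 CPM there. The region at the start of Mettl16 was 75.54 CPM in MI BZ 1, against 20.5 to 36.3 CPM. The region at the start of Fam161a was 12.59 CPM in MI BZ 1, which is 1 pair, and 0 in the other MI libraries. The region at the start of Eprs was 48.37 CPM in MI RZ 1, against 0 to 15.1 CPM.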

How the results depend on the processing

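Counts below are windows or regions past an adjusted p of 0.05 in limma, each against 0 without the block unless stated, and the causes of the changes were not tested. Over the 3 zones the replicate block gave 22 windows, and leaving out MI BZ and RZ of number 1 gave 58. From the blocked 22 windows, counting each read position once left 11, leaving out the 3 libraries under 100000 pairs left 0, and leaving out MI BZ and RZ of number 1 gave 89. In the IZ the limma-trend setting gave 120 windows. In the BZ leaving out the 3 shallow libraries gave 2 and leaving out MI BZ and RZ of number 1 gave 107. In the RZ the replicate block gave 1 and leaving out those libraries 368, and for the IZ less the RZ and for P1 less P10 it gave 175 and 17. For regions in the BZ the replicate block gave 1, a stricter minimum 1 and limma-trend 7, and for the IZ less the RZ limma-trend gave 1. The block alone changed no other count of calls among these comparisons. Together with the block, leaving out MI BZ and RZ of number 1 gave 100 windows in the BZ, 346 in the RZ, 90 for the IZ less the RZ and 23 for P1 less P10, and 2 regions each in the RZ and for the IZ less the RZ, with 0 in the BZ. Together with the block, leaving out the 3 shallow libraries gave 13 windows in the BZ and 0 in the RZ, and 1 region over the zones and 0 in the BZ, and counting each position once gave 0 windows in the RZ and 0 regions in the BZ. The libraries left out and the read positions counted once were chosen after seeing the data.

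Leaving out 1 library at a time gave 0 to 20 windows over the 3 zones, 1 to 78 with the block, 0 to 137 in the IZ, 0 to 102 in the BZ, 0 to 349 in the RZ, 0 to 164 for the IZ less the RZ and 0 to 6 for P1 less P10. With the block the last 5 were 0 to 114, 0 to 92, 0 to 339, 0 to 85 and 0 to 13, and for regions 0 to 5 over the 3 zones, 0 to 1 in the IZ, 0 to 4 in the BZ, 0 to 2 in the RZ and 0 to 1 for the IZ less the RZ. For regions without the block the ranges were 0 to 1 in the IZ, 0 to 2 in the BZ, 0 to 1 in the RZ and 0 to 1 for the IZ less the RZ. The highest counts came without MI IZ 1 (137 in the IZ), MI BZ 1 (102 in the BZ) and MI RZ 1 (349 in the RZ), where an arm keeps 1 library that is assumed to vary like the other groups. The difference in the share of pairs in regions ran from -2.592 to 3.678 percentage points, with -0.4632, -1.54, -0.4282, -0.1195 and -0.4443 among the values that changed sign, and that of chromosome X from 0.4131 to 0.7406, the latter without MI IZ 2 with an exact p of 0.0463. Scaling to all counted pairs left 1 window higher and 273 lower at an unadjusted p under 0.05, against 246 and 372. The depth of the 3 shallow libraries limits what a 0 in them shows.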
